A study of Mus musculus with 8 samples.

Results

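The aryl hydrocarbon receptor (AHR), its partner, its feedback repressors and its best known target genes were followed through RNA-seq of mouse embryonic fibroblasts (MEFs) and of MEFs cultured with 1 of 3 small molecules. The members were 9 genes chosen by symbol, namely Ahr, Arnt, Ahrr, Tiparp, Cyp1a1, Cyp1a2, Cyp1b1, Nqo1 and Aldh3a1, of 50578 genes listed in the count table. Each of them was listed once. There were 4 groups of 2 libraries: MEF, labelled as control, and MEFs with Carbidopa, LY-364747 or CHIR-99021, each at 10 µM. The labels give all cells as wild type and the source of all libraries as mouse embryonic fibroblast, and they call the treated cells hepatic-like. The MEFs were grown from E13.5 C57BL/6J embryos after removal of head, tail, limbs and organs, and are thus a primary mixture of cells rather than a clone. The treated groups thus started from the same kind of cells as the MEF group, and all 3 treatments are compared with the same 2 MEF libraries. The name LY-364747 is the spelling of the labels, while the methods write LY-364947. Carbidopa blocks aromatic L-amino acid decarboxylase, the LY compound blocks the TGF-beta receptor kinase, and CHIR-99021 blocks the kinase GSK3. The sources used here give neither a vehicle in the MEF cultures nor how long the cells were treated before RNA-seq. They also do not say whether the 2 libraries of a group came from separate cultures, so p-values measure only the spread between these libraries, which may be technical.

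AHR is a transcription factor of the bHLH-PAS family that is switched on by small ligands. Without a ligand it stays in the cytosol with the chaperone HSP90 and the cochaperone p23, and with a ligand it enters the nucleus, pairs with ARNT and binds DNA at elements with the core GCGTG. Its classical targets are the cytochrome P450 genes Cyp1a1, Cyp1a2 and Cyp1b1, which oxidize aromatic compounds, and Nqo1 and Aldh3a1, which detoxify quinones and aldehydes. AHRR competes for ARNT and TIPARP modifies AHR with ADP-ribose, so that both close a feedback loop on the receptor. In liver, hepatocytes are the main site of CYP1A2, whereas CYP1B1 is typical of mesenchymal cells. Carbidopa has been described as an AHR agonist in other cells.

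The promoters of 5 members are shown because they hold, or lack, the core element and belong to the genes with the clearest changes or to the most inducible targets. They are from RefSeq for GRCm38.p6 (mm10), which held a window for 7 of 9 members, and Ahr and Aldh3a1 are named only. Each runs 5′ to 3′ on the strand of the gene from 200 bases before the start site, without bases that GENCODE M21 gives as exon. Capitals mark GCGTG on the printed strand or CACGC, which is the same core on the other strand.

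Cyp1b1, chr17:79715062-79715261, minus strand: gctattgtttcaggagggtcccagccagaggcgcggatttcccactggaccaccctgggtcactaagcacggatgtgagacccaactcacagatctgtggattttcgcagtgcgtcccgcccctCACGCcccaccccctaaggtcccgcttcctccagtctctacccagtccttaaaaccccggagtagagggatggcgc

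Nqo1, chr8:107403207-107403405, minus strand: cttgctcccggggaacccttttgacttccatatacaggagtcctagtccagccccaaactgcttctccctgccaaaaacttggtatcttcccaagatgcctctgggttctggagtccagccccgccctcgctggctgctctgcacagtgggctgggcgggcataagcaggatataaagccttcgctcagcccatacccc

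Ahrr, chr13:74292332-74292531, minus strand: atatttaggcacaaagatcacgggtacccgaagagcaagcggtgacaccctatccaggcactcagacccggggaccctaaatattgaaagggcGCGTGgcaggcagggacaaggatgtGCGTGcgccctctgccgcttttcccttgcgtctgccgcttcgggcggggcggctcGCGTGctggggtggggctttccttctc

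Cyp1a1, chr9:57697413-57697612, plus strand: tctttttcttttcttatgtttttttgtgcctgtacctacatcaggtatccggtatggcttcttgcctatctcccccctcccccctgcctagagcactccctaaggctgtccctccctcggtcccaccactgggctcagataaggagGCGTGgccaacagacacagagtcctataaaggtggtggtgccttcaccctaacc

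Tiparp, chr3:65528247-65528409, plus strand: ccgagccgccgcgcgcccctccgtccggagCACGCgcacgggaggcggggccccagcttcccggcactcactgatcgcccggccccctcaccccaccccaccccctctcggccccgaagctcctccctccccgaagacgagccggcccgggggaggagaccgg

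The Ahrr promoter held the core 3 times, beginning 107, 82 and 27 bases before the start. Cyp1a1 held it at 54 bases, Cyp1b1 at 76 bases and Tiparp at 170 bases, the last 2 on the other strand. Arnt, whose promoter is not printed, held it at 29 bases. Nqo1 and Cyp1a2 held no copy in these windows. The Cyp1a1 window lies inside the span that GENCODE M21 gives for this gene. The RefSeq start used for it is downstream of the start of that span. The core is short, and on both strands it occurred in 24.7% of 32851 mouse promoters over the 200 bases before the start. The longer form TNGCGTG occurred in 3.30% of them and among the members only in Ahrr. The core of the antioxidant response element, TGACNNNGC, occurred in 8.60% and among the members only in Arnt. A match describes letters and not binding, and it overlaps other motifs that share these letters.

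Library sizes ranged from 15039566 counts in MEF replicate 1 to 20504338 in Carbidopa replicate 2, so that 1 read was worth 0.0467 to 0.0744 CPM, the usual depth-scaled count, given here on TMM-scaled library sizes. Of all genes, 15154 (29.96%) had enough counts for the edgeR quasi-likelihood test, whose p-values were adjusted over these genes by the Benjamini-Hochberg method. A gene is said to differ where this adjusted p was under 0.05. The 2 Carbidopa libraries stood farther apart from each other than other replicates, with a chi-square per degree of freedom of 36.4 over genes against 4.35 for MEF, 7.603 for LY-364747 and 9.38 for CHIR-99021. Fibroblast markers summed to 35069 to 35423 CPM in MEF libraries and to 8239 to 11798 CPM in treated ones, with 9 of 11 markers lower and 1 higher in each treatment and none at 0 in any library. The higher one was Pdgfra, a growth factor receptor named after its values were seen (log2 fold change 0.49, 0.36 and 0.64, adjusted p = 0.00747, 0.0324 and 0.00144). Macrophage markers summed to 1305 and 1340 CPM in MEF, 385 and 408 CPM with Carbidopa, 287 and 297 CPM with LY-364747 and 97.9 and 105 CPM with CHIR-99021. Of 15 hepatocyte markers none had enough counts for the test. They had 4 and 13 reads in all in the MEF libraries and 27 to 35 reads in treated libraries, and 9 to 12 of the 15 were at 0 in each library. Epithelial markers summed to 4.45 and 6.25 CPM in MEF and 10.2 to 21.7 CPM in treated libraries. Krt19 alone gave 2.32 and 3.20 CPM of this in MEF and 6.09 to 19.2 CPM in treated ones. Of 4 epithelial markers tested, 1 was higher and 1 lower with Carbidopa and with LY-364747, and 3 higher and 1 lower with CHIR-99021. The lower one was Krt7, with at most 27 reads in a library. Endothelial markers summed to 16.8 and 19.6 CPM in MEF and 11.3 to 15.6 CPM in treated libraries. Of 3 tested, 1, 1 and 2 were lower. Of all genes, 37.7%, 31% and 38.8% differed. Alb and Hnf4a, which define hepatocytes, stayed at 10 reads or fewer in every library. Alb was at 0.149 and 0 CPM in MEF and at 0.235 to 0.533 CPM in treated libraries, and Hnf4a was at 0.0744 and 0.129 CPM in MEF and at 0.282 to 0.561 CPM in treated ones.

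Both Cyp1b1 and Nqo1 changed in all 3 treatments, in opposite directions. Cyp1b1 was lower and Nqo1 was higher in every treated library than in both MEF libraries. Tiparp was lower with CHIR-99021. Ahr, Arnt, Ahrr and Cyp1a1 did not pass the test in any comparison, and Cyp1a2 and Aldh3a1 had too few reads to be tested. Thus, of 7 members tested, 1 was higher and 1 was lower with Carbidopa, where 37.7% of all genes tested differed. The same count, 1 higher and 1 lower, was found for LY-364747, where 31% of all genes differed. For CHIR-99021 there were 1 higher and 2 lower, where 38.8% of all genes differed. These shares are near the background and are no result about the members. The 2 groups did not overlap for 5 members with Carbidopa, 7 with LY-364747 and 6 with CHIR-99021, against 68.9%, 72.7% and 76.2% of all genes.

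**Figure D1:**
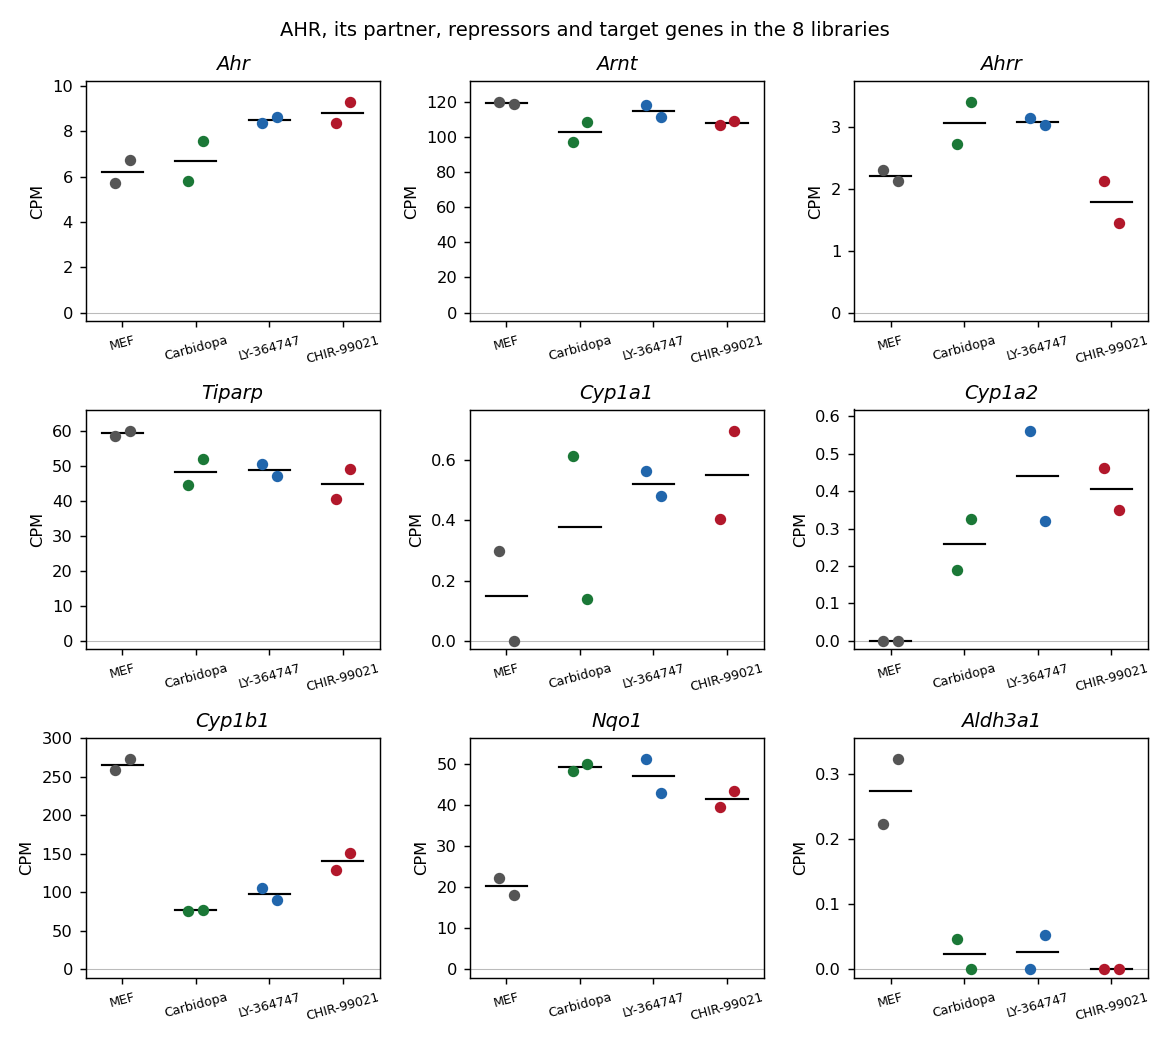
CPM of each of the 9 members in the 8 libraries, 1 panel per gene with its own axis from 0. Points are libraries and horizontal lines are means of 2 libraries. Cyp1b1 falls from 258 and 273 CPM in MEF to between 75.6 and 151 CPM in treated libraries, and Nqo1 rises from 18.2 and 22.2 CPM to between 39.6 and 51.2 CPM.

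The receptor itself was expressed at a low level in all groups. Ahr (ENSMUSG00000019256, chr12:35497974-35535038, minus strand) had 77 and 104 reads in MEF, 123 and 162 with Carbidopa, 149 and 162 with LY-364747 and 145 and 160 with CHIR-99021. This was 6.22 ± 0.696 CPM in MEF, 6.67 ± 1.25 CPM with Carbidopa, 8.50 ± 0.187 CPM with LY-364747 and 8.82 ± 0.662 CPM with CHIR-99021 (SD, n = 2 in each group). The Carbidopa libraries, at 5.79 and 7.56 CPM, overlapped the MEF libraries, at 5.73 and 6.71 CPM, whereas all LY-364747 and CHIR-99021 libraries lay above both of these groups. The log2 fold change against MEF was 0.10 (95% interval -0.33 to 0.52, adjusted p = 0.710) with Carbidopa. It was 0.45 (0.02 to 0.87, adjusted p = 0.104) with LY-364747 and 0.50 (0.08 to 0.92, adjusted p = 0.0604) with CHIR-99021. Neither passed the threshold, and the side of the threshold depended on the fit. Both passed with only the 2 groups compared (edgeR adjusted p = 0.0427 and 0.0354). Both also passed without either Carbidopa library, which is in neither group compared. They did not pass without any 1 library of MEF or of the compound itself, nor by DESeq2 (adjusted p = 0.256 and 0.179). With 1 library left out, the log2 fold change was 0.34 to 0.57 with LY-364747 and 0.40 to 0.62 with CHIR-99021. A long noncoding RNA gene on the other strand, Gm48236, overlaps 127 exon bases of Ahr, and reads there cannot be assigned where strand is not used in counting.

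Arnt (ENSMUSG00000015522, chr3:95434388-95497240, plus strand), the partner that AHR needs to bind DNA, had close values in all groups. They were 119.8 and 118.5 CPM in MEF, 97.3 and 109 CPM with Carbidopa, 118 and 111 CPM with LY-364747 and 107 and 109 CPM with CHIR-99021. Against MEF the log2 difference was -0.21 (SE 0.10, adjusted p = 0.114), -0.06 (SE 0.10, adjusted p = 0.707) and -0.15 (SE 0.10, adjusted p = 0.269). All treated libraries were below both MEF libraries, and the 95% interval with Carbidopa reached from -0.43 to 0.01. Without Carbidopa replicate 2 the value with Carbidopa passed the test (-0.29, adjusted p = 0.0136). Per length of exon, Arnt had a mean of 14.9 FPKM in MEF, and Ahr had 1.01 FPKM, so the level of the partner was well above that of the receptor in these cells.

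Ahrr (ENSMUSG00000021575, chr13:74211118-74292331, minus strand), the repressor with 3 cores in its promoter, had few reads. They were 31 and 33 in MEF, 58 and 73 with Carbidopa, 56 and 57 with LY-364747 and 37 and 25 with CHIR-99021. Mean levels were 2.22 ± 0.124 CPM in MEF, 3.07 ± 0.477 CPM with Carbidopa, 3.09 ± 0.0762 CPM with LY-364747 and 1.79 ± 0.481 CPM with CHIR-99021 (SD, n = 2). Both Carbidopa and both LY-364747 libraries were above the MEF libraries, while CHIR-99021 replicate 1 was level with MEF and replicate 2 was below it. Against MEF the log2 values were 0.47 (SE 0.27, adjusted p = 0.198), 0.48 (SE 0.27, adjusted p = 0.221) and -0.30 (SE 0.29, adjusted p = 0.443), and none passed the test. Between treatments, CHIR-99021 was lower than Carbidopa by -0.77 (SE 0.27, adjusted p = 0.0872) and lower than LY-364747 by -0.78 (SE 0.28, adjusted p = 0.0883), which also did not pass. Without Carbidopa replicate 1 the latter had an adjusted p of 0.0487.

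Tiparp (ENSMUSG00000034640, chr3:65528410-65555518, plus strand), the ADP-ribosyltransferase of the feedback loop, had its highest levels in MEF. It had 58.6 and 60.3 CPM in MEF, 44.6 and 52.1 CPM with Carbidopa, 50.7 and 47.3 CPM with LY-364747 and 40.7 and 49.4 CPM with CHIR-99021. No treated library reached the MEF libraries. With CHIR-99021 it fell by 0.40 on the log2 scale (SE 0.13, adjusted p = 0.0282), a 1.32-fold lower level. The call did not hold when any 1 of 5 libraries was left out. The adjusted p was 0.105 without MEF replicate 1, 0.147 without MEF replicate 2, 0.244 without CHIR-99021 replicate 1, 0.0501 without LY-364747 replicate 1 and 0.0512 without LY-364747 replicate 2. The log2 fold changes with Carbidopa, -0.30 (SE 0.12, adjusted p = 0.0838), and with LY-364747, -0.28 (SE 0.12, adjusted p = 0.1202), were of like size and did not pass. With Carbidopa the test was passed without Carbidopa replicate 2 (-0.41, adjusted p = 0.0136), and with LY-364747 without Carbidopa replicate 1 (adjusted p = 0.0375) or 2 (adjusted p = 0.0384). Tiparp shares 3.47% of its 75-base words with the pseudogene 4931440P22Rik on the other strand, which overlaps 223 of its exon bases.

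Cyp1b1 (ENSMUSG00000024087, chr17:79701537-79715061, minus strand), the CYP1 enzyme of mesenchymal cells, was the member with the highest level per exon length in MEF (45.5 FPKM) and the largest fall among those tested. It had 258 and 273 CPM in MEF, 75.6 and 77.6 CPM with Carbidopa, 105 and 90.3 CPM with LY-364747 and 129.7 and 151 CPM with CHIR-99021. The groups did not overlap and the order was MEF, CHIR-99021, LY-364747 and Carbidopa. Against MEF its log2 fold change was -1.80 with Carbidopa (SE 0.12, adjusted p = 1.38e-06), which is 3.47-fold lower. It was -1.44 with LY-364747 (SE 0.12, adjusted p = 6.38e-06), 2.72-fold lower, and -0.92 with CHIR-99021 (SE 0.11, adjusted p = 0.000137), 1.89-fold lower. These falls were larger than those of most genes, with 4.94%, 6.14% and 12.5% of all genes tested falling further. Its level in CHIR-99021 was 1.84-fold that in Carbidopa (log2 difference 0.88, SE 0.12, adjusted p = 0.000885), where 14.7% of all genes differed. It was 1.44-fold that in LY-364747 (0.52, SE 0.12, adjusted p = 0.0140), where 14.1% of all genes differed. The latter call was lost without CHIR-99021 replicate 2 (adjusted p = 0.108), LY-364747 replicate 1 (0.0522) or LY-364747 replicate 2 (0.130). LY-364747 and Carbidopa did not differ by the test (0.35, 95% interval 0.10 to 0.61, adjusted p = 0.519), except without Carbidopa replicate 2 (adjusted p = 0.0428).

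Cyp1b1 is known as a gene of fibroblasts, whose marker sum also fell in treated cells, as given above. In bulk RNA, fewer cells of a type and less RNA per cell cannot be told apart. The median log2 fold change of the 11 fibroblast markers was -1.60 with Carbidopa, -1.05 with LY-364747 and -1.60 with CHIR-99021. The macrophage sum was lowest with CHIR-99021, where Cyp1b1 was highest among treatments. The part of either in the fall of Cyp1b1 was not tested.

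Cyp1a1 (ENSMUSG00000032315, chr9:57687928-57703824, plus strand), usually the most strongly induced target of AHR, was near the limit of detection everywhere. MEF libraries held 4 and 0 of its reads, Carbidopa libraries 13 and 3, LY-364747 libraries 10 and 9 and CHIR-99021 libraries 7 and 12. No library exceeded 0.696 CPM. Log2 fold changes of 1.38 (SE 1.07, adjusted p = 0.329), 1.85 (SE 1.03, adjusted p = 0.209) and 1.93 (SE 1.03, adjusted p = 0.166) did not pass the test. As a ratio of pooled reads, scaled by library size, the level against MEF was 2.71 with Carbidopa (exact 95% interval 0.875 to 11.2), 3.76 with LY-364747 (1.25 to 15.2) and 3.97 with CHIR-99021 (1.32 to 16.1). These intervals cover counting error only. With Carbidopa the value rested on replicate 1, without which the log2 fold change was 0.01. Without MEF replicate 1 no MEF read was left and no fold is given.

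Cyp1a2 (ENSMUSG00000032310, chr9:57676937-57683703, minus strand), the CYP1 enzyme of hepatocytes, lies beside Cyp1a1 on chromosome 9 and had 0 reads in both MEF libraries. It had 4 and 7 reads with Carbidopa, 10 and 6 with LY-364747 and 8 and 6 with CHIR-99021, so every treated library held reads and no MEF library did. Against the 3 reads that a count of 0 allows over the MEF group, the level was at least 2.49-fold higher with Carbidopa, 4.22-fold higher with LY-364747 and 3.90-fold higher with CHIR-99021. With the counting error of the treated reads included, the lower ends of the exact 95% intervals were 1.70, 3.05 and 2.78. It was below the filter of the test. In an edgeR fit without a filter, over 26825 genes, its adjusted p was 0.0240, 0.0044 and 0.0051, which passed the threshold. For Cyp1b1 with Carbidopa that fit gave an unadjusted p of 1.88e-42, where the main edgeR fit gave 2.46e-08. It also called 329 genes between LY-364747 and Carbidopa, beside 2 in the main fit. Its p-values can thus be far smaller than those of the main fit, so these passes are weak support. With 1 library left out Cyp1a2 came to be tested in 7 of the fits. The exception was the fit without LY-364747 replicate 1, its highest library at 10 reads. Cyp1a2 thus entered these fits only through a treated library, and passes in them are no support. It did not pass without MEF replicate 1 or 2 in any treatment. Nor did it pass with Carbidopa without Carbidopa replicate 2, or with CHIR-99021 without CHIR-99021 replicate 1. In no library did it exceed 0.561 CPM, and 3.25% of its 75-base words are shared with Cyp1a1, so a few reads could belong to either gene. Among 2175 genes with 30 to 80 reads in all, a band chosen after these values were seen, 3.40% had no read in MEF, and 44.6%, 56.0% and 48.6% had a higher mean than MEF in the 3 treatments in the order Carbidopa, LY-364747 and CHIR-99021. Their summed level was 0.795, 0.961 and 0.811 of that in MEF, in the same order.

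Nqo1 (ENSMUSG00000003849, chr8:107388225-107403206, minus strand) encodes a quinone reductase that is a target of AHR and also of NRF2, the factor of the antioxidant response. It had 22.2 and 18.2 CPM in MEF, 48.4 and 50.0 CPM with Carbidopa, 51.2 and 42.9 CPM with LY-364747 and 39.6 and 43.3 CPM with CHIR-99021. All 6 treated libraries were above both MEF libraries. The log2 fold change was 1.29 with Carbidopa (SE 0.14, adjusted p = 4.12e-05), 1.22 with LY-364747 (SE 0.14, adjusted p = 6.43e-05) and 1.04 with CHIR-99021 (SE 0.14, adjusted p = 0.000189). The level was 2.44-fold, 2.33-fold and 2.06-fold that in MEF. Of all genes tested, 5.83%, 6.66% and 7.54% rose further. The treatments did not differ from each other by the test. LY-364747 minus Carbidopa was -0.07 (95% interval -0.35 to 0.22, adjusted p = 0.837) and CHIR-99021 minus Carbidopa was -0.25 (-0.53 to 0.04, adjusted p = 0.230). CHIR-99021 minus LY-364747 was -0.18 (-0.47 to 0.10, adjusted p = 0.382). These intervals leave room for a difference of up to 0.53 on the log2 scale.

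Aldh3a1 (ENSMUSG00000019102, chr11:61207537-61218421, plus strand), the aldehyde dehydrogenase of the set, was close to the limit of detection and had most of its few reads in MEF. It had 3 and 5 reads in MEF, 1 and 0 with Carbidopa, 0 and 1 with LY-364747 and 0 and 0 with CHIR-99021. The MEF level was 11.8 times that with Carbidopa (exact 95% interval 1.58 to 523) and 10.1 times that with LY-364747 (1.36 to 449), for counting error only. With CHIR-99021 the level was at least 3.19-fold lower, against the 3 reads that a count of 0 allows over the group, and the exact 95% interval, which includes the counting error of the MEF reads, began at 2.04. In the fit without a filter it did not pass (adjusted p = 0.224, 0.304 and 0.101).

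**Figure D2:**
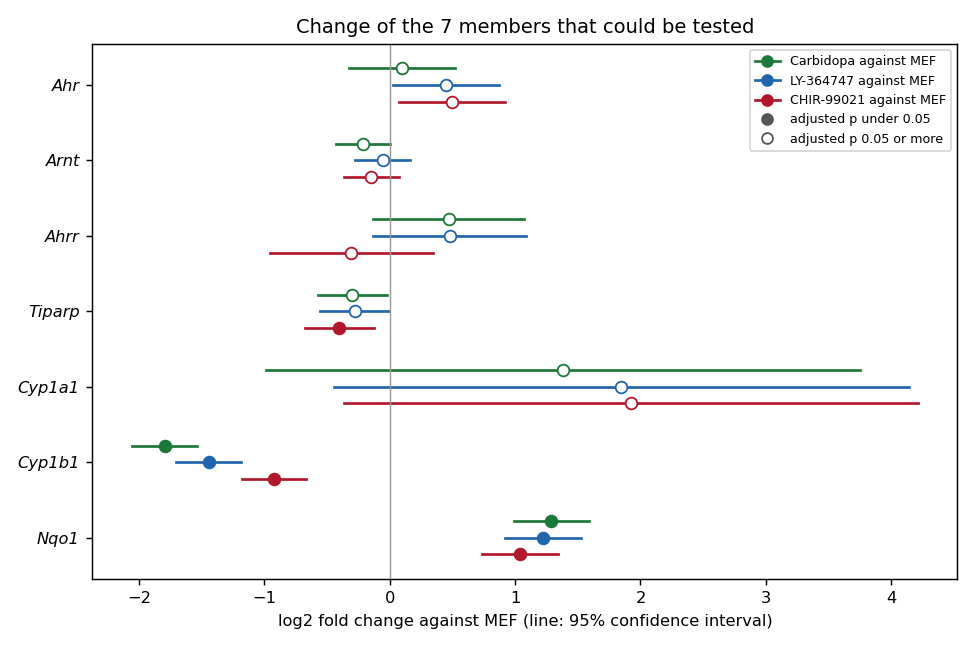
Log2 fold changes against MEF of the 7 members that could be tested, with 95% confidence intervals as lines, for Carbidopa, LY-364747 and CHIR-99021 (2 libraries each). Filled points had an adjusted p under 0.05. Cyp1b1 lies below 0 and Nqo1 above 0 in all 3 comparisons, while the intervals of Cyp1a1 span 0 and are the widest.

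Levels of different members were set against each other per length of exon, as mean FPKM. In MEF, Cyp1b1 was at 45.5 FPKM, Arnt at 14.9 FPKM, Tiparp at 13.6 FPKM and Nqo1 at 13.0 FPKM. With Carbidopa the order was turned, with Nqo1 at 31.7 FPKM and Cyp1b1 at 13.1 FPKM. With LY-364747 Nqo1 was at 30.3 FPKM and Cyp1b1 at 16.8 FPKM, whereas with CHIR-99021 they were at 26.7 and 24.1 FPKM. Ahr was at 1.01 to 1.43 FPKM and Ahrr at 0.190 to 0.327 FPKM in the 4 groups. Cyp1a1, Cyp1a2 and Aldh3a1 did not exceed 0.219 FPKM in any group.

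Between the treatments, 15154 genes were compared in each of 3 pairs at the same dose. Of the 7 members tested, 1 had a higher level with CHIR-99021 than in Carbidopa libraries, where 6.62% of all genes did, and 1 a higher level with CHIR-99021 than in LY-364747 libraries, where 6.45% did. It was Cyp1b1 in both. No member differed between LY-364747 and Carbidopa by edgeR, where 0.0132% of all genes did, nor by DESeq2. At an unadjusted p under 0.05 there was 1 member, Cyp1b1, beside 9.02% of all genes.

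Beyond the members, 13 other genes described as AHR targets were followed, of which 10 could be tested. Of these, 2 were higher and 3 lower with Carbidopa, 2 higher and 4 lower with LY-364747 and 1 higher and 4 lower with CHIR-99021, against 18%, 13.7% and 18.7% of all genes higher and 19.7%, 17.2% and 20.1% lower. The 4 lower with CHIR-99021 included Ugt1a6b, which was at 0 and 0.116 CPM in those libraries, near the limit of detection. The median log2 fold change was -0.36, -0.48 and -0.39, beside 0.04, 0.03 and 0.04 over all genes. It included Cyp2s1, Gsta1 and Ugt1a6b, which had at most 21, 22 and 19 reads in a library. The largest rise was that of Fmo2, a flavin monooxygenase that oxidizes amines and sulfur compounds, from 15.02 and 18.8 CPM in MEF to 222 and 251 CPM with Carbidopa, 255 and 215 CPM with LY-364747 and 104 and 120.1 CPM with CHIR-99021. Relative to MEF its log2 change was 3.80, 3.79 and 2.72 (adjusted p = 5.28e-08, 5.36e-08 and 4.01e-07). In CHIR-99021 it was lower than in Carbidopa by -1.08 (adjusted p = 0.000677) and lower than in LY-364747 by -1.07 (adjusted p = 0.000761). Slc7a5, a subunit of the transporter that takes up tryptophan and other large amino acids, fell with log2 fold changes of -0.78, -0.77 and -1.06 (adjusted p = 0.000720, 0.000812 and 8.53e-05). Ugt1a6a, a glucuronosyltransferase, fell with LY-364747 (-0.86, adjusted p = 0.0154) and CHIR-99021 (-1.83, adjusted p = 0.000227) and was at -0.57 with Carbidopa (adjusted p = 0.0662). Its exons are shared in part with other genes of the Ugt1a cluster, so its reads are uncertain.

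The list around NRF2, with which AHR shares Nqo1, held 14 genes, and all could be tested. It was not of targets alone, as it held Nfe2l2 and Keap1, whose product holds NRF2 back. Keap1, named after its values were seen, was higher with Carbidopa (0.64, adjusted p = 0.0210) and CHIR-99021 (0.67, adjusted p = 0.0168). With LY-364747 it did not pass (0.52, adjusted p = 0.0604). Of the 14 genes, 8 were higher and 2 lower with Carbidopa, and 7 higher and 2 lower with LY-364747. With CHIR-99021, 10 were higher and 3 lower. The median log2 fold changes were 0.58, 0.44 and 0.48, in the order Carbidopa, LY-364747 and CHIR-99021. Of all genes tested, 18%, 13.7% and 18.7% of all genes were higher and 19.7%, 17.2% and 20.1% lower, in the same order. Nfe2l2, which encodes NRF2 itself, rose by 1.07, 0.94 and 0.52 on the log2 scale (adjusted p = 1.19e-05, 3.10e-05 and 0.00169). Txnrd1, a thioredoxin reductase, rose by 0.98, 0.92 and 1.64 (adjusted p = 3.14e-05, 5.21e-05 and 8.05e-07), and Srxn1, a sulfiredoxin, rose by 0.90, 0.83 and 0.93 (adjusted p = 7.54e-05, 0.000134 and 5.70e-05). Gstm1, a glutathione transferase, rose by 1.24, 1.12 and 0.40 (adjusted p = 5.76e-06, 1.24e-05 and 0.00895). The treatments ranked differently among these genes. Relative to Carbidopa, CHIR-99021 was higher for Txnrd1 (0.65, adjusted p = 0.00192) and lower for Nfe2l2 (-0.55, adjusted p = 0.00370) and Gstm1 (-0.84, adjusted p = 0.000424). Slc7a11, the cystine transporter and a common NRF2 target, fell with -1.62, -1.89 and -1.77 (adjusted p = 0.00620, 0.00339 and 0.00413), and it is named after its values were seen.

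**Figure D3:**
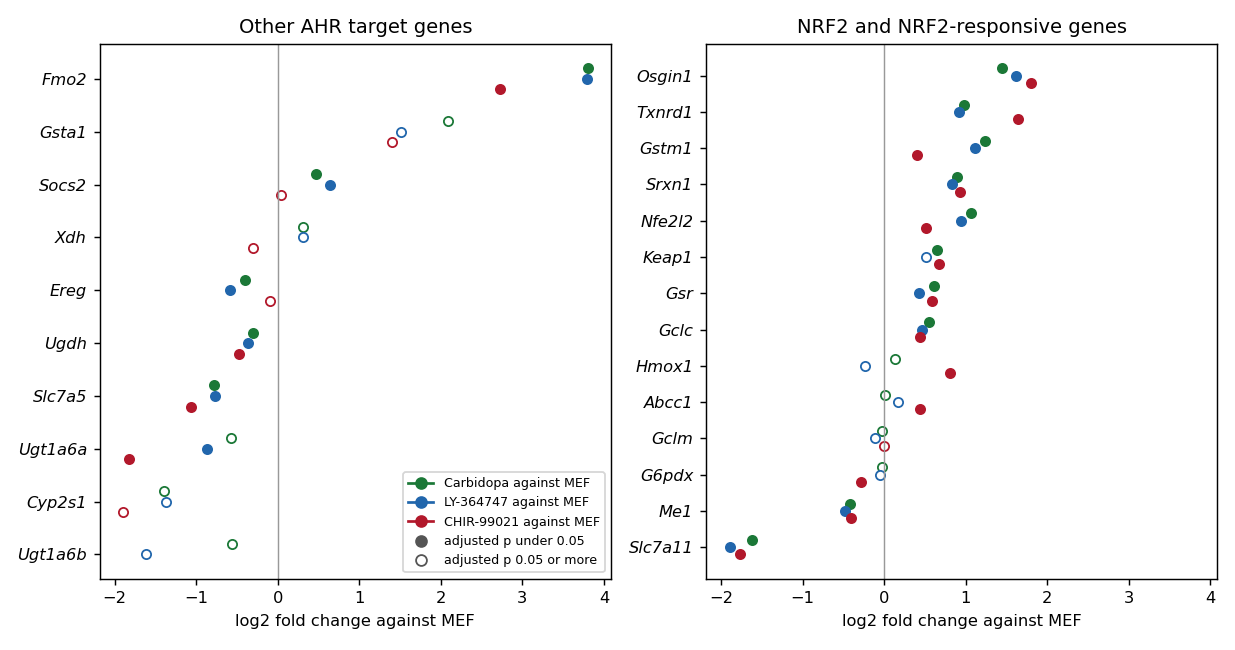
Log2 fold changes against MEF of 10 other AHR target genes and of the 14 genes of the NRF2 list, Nfe2l2 and Keap1 included. The 3 treatments are in different colors. Filled points had an adjusted p under 0.05, and the value of Ugt1a6b with CHIR-99021 is left out because it had no more than 3 reads in either library. Fmo2 stands to the right at 2.72 to 3.80. Most genes of the NRF2 list lie to the right of 0, with Slc7a11 the farthest to the left.

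Among 9 genes of the cytosolic AHR complex and its coregulators, all tested, 2 were higher and 1 lower with Carbidopa, 3 higher with LY-364747 and 4 higher with CHIR-99021. These counts, 3, 3 and 4 of 9, lie near the 37.7%, 31% and 38.8% of all genes that differed. Hsp90aa1, an HSP90 gene, fell with Carbidopa (-1.35, adjusted p = 0.00273) and was at -0.51 (adjusted p = 0.169) and -0.30 (adjusted p = 0.384) with the others. Its Carbidopa libraries were at 325 and 493 CPM and its MEF libraries at 1064 and 1026 CPM. The other HSP90 gene of the list, Hsp90ab1, named after its values were seen, had 1238 to 1912 CPM. It was at 0.05 with Carbidopa (adjusted p = 0.752), -0.14 with LY-364747 (adjusted p = 0.384) and 0.33 with CHIR-99021 (adjusted p = 0.0408). The coregulators Ncoa3 (0.81, 1.19 and 0.75, adjusted p = 0.00310, 0.000281 and 0.00447) and Nrip1 (0.74, 0.94 and 1.05, adjusted p = 0.000531, 0.000111 and 4.49e-05) rose in all treatments. Src, a kinase held in the AHR complex, rose with CHIR-99021 (0.52, adjusted p = 0.00347).

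Of 13 relatives of AHR and ARNT in the bHLH-PAS family, 11 could be tested, of which 1 was higher and 4 lower with Carbidopa, 1 higher and 4 lower with LY-364747 and 2 higher and 4 lower with CHIR-99021, beside the same 37.7%, 31% and 38.8% of all genes that differed in either direction. Arnt2, a close relative of Arnt, rose from 11.2 and 10.8 CPM in MEF to 29.2 and 40.9 CPM with Carbidopa. It was at 38.3 and 38.9 CPM with LY-364747 and at 16.9 and 17.1 CPM with CHIR-99021. Its log2 fold change was 1.68, 1.82 and 0.63 (adjusted p = 2.32e-05, 1.35e-05 and 0.0130). Arnt2 was lower with CHIR-99021 than with Carbidopa (-1.04, adjusted p = 0.00173). Hif1a, the hypoxia factor that also pairs with ARNT, fell with log2 fold changes of -0.85, -0.82 and -0.56 (adjusted p = 0.000163, 0.000222 and 0.00225). The clock genes Npas2 (-1.76, -1.48 and -1.66, adjusted p = 0.00115, 0.00339 and 0.00174) and Arntl (-0.88, -0.99 and -0.48, adjusted p = 0.000184, 8.90e-05 and 0.00722) fell as well. Of 9 enzymes that make or break down kynurenine, a natural AHR ligand, or otherwise act on tryptophan, 2 had enough counts for the test. Kynu, which breaks kynurenine down, had 4 to 20 reads per library and fell with Carbidopa (-1.24, adjusted p = 0.0393) and CHIR-99021 (-2.43, adjusted p = 0.00318), with -0.95 (adjusted p = 0.110) with LY-364747.

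Across the 8 libraries, the pattern of Cyp1b1 was most like that of Spry4 (Pearson r = 0.994 of log2 CPM), Nox4 (0.994), Lox (0.992), Hs6st2 (0.990) and Megf10 (0.989), among 9180 tested genes with a mean of at least 10 CPM. Lox, which cross-links collagen, had 5674 and 5847 CPM in MEF, 808 and 909 CPM with Carbidopa, 1085 and 1005 CPM with LY-364747 and 1906 and 2073 CPM with CHIR-99021. Megf10 fell furthest, to between 1.37% and 13.7% of its MEF mean, whereas Spry4 stayed at 51.8% or more. For Ahr, the genes were Lmtk2 (0.971), Rsf1 (0.966), Pot1a (0.966), Gm10033 (0.962) and Ptch1 (0.962), among 9181 genes. These are descriptions: the libraries form 4 groups, differ together in depth, and were compared with many genes, so high values are common.

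**Figure D4:**
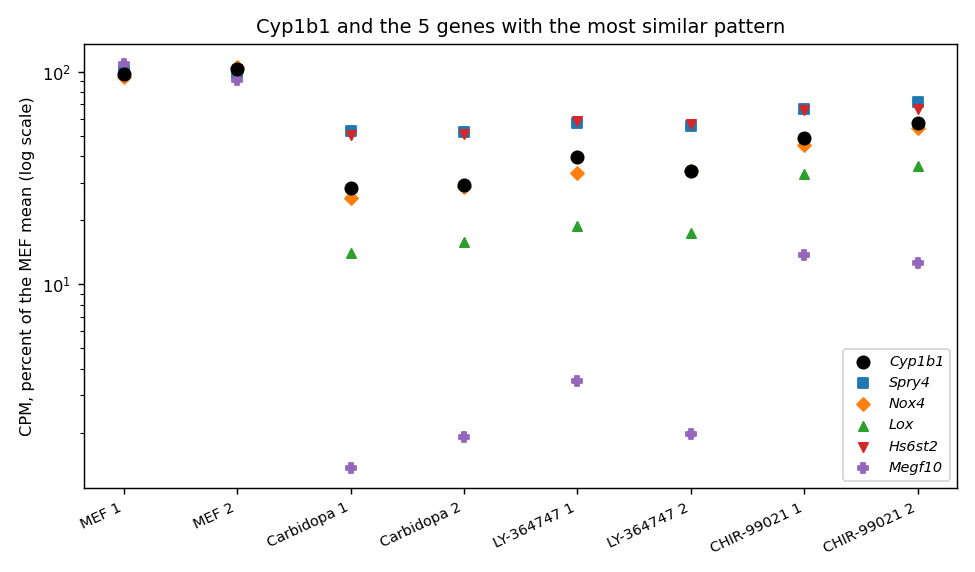
CPM in percent of the MEF mean, on a log axis, for Cyp1b1 and the 5 genes whose log2 CPM correlated best with it, in each of the 8 libraries. Cyp1b1 stands at 28.4% and 29.2% with Carbidopa, 39.6% and 34.0% with LY-364747 and 48.8% and 57.0% with CHIR-99021, and the other genes keep the order of the groups at other depths.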

How the data were processed

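The authors aligned reads to mm10 with STAR 2.4.2a, counted them per gene with featureCounts, and deposited counts without normalization. Neither annotation nor strand setting is given in the sources used here. The labels name a SMARTER kit, while the methods name NEBNext Ultra. Samples were grouped by title and treatment. Genes passing filterByExpr were tested with edgeR 4.0.16 in R 4.3.3 (TMM, quasi-likelihood, group as the only term, all 8 libraries), adjusted by Benjamini-Hochberg over 15154 genes, with a threshold of 0.05. The coefficient of biological variation was 11.0%. FPKM are CPM per kilobase of union exon in GENCODE M21, which held 99.6% of gene identifiers. Ratios of pooled counts have exact 95% intervals that cover counting error only, since reads are not independent molecules. The script was tested on simulated data. Members and lists were chosen with earlier results of these data known. Some genes are not reported here. Named list genes are up to 4 per list with the smallest adjusted p against MEF. Alternatives were DESeq2 1.42.0, RLE size factors, no filter or at least 10 counts in every library, only the 2 groups compared, a replicate block and leaving out each library.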

Additional observations from a re-analysis of the deposited data

How the results depend on the processing

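The falls of Cyp1b1 and rises of Nqo1 against MEF held in every alternative. Without 1 library the log2 fold change of Cyp1b1 was -1.84 to -1.76 with Carbidopa, -1.56 to -1.34 with LY-364747 and -1.03 to -0.81 with CHIR-99021, and that of Nqo1 was 1.14 to 1.43, 1.08 to 1.37 and 0.90 to 1.19. Of 575 alternative values for single members, 536 kept direction and side of the threshold, 14 came to pass it, 8 no longer passed it and 17 changed sign, all of the last from values that had not passed. Leaving out 1 library gave ranges of -0.11 to 0.28 for Ahr with Carbidopa, -0.020 to 0.13 for Ahr in CHIR-99021 minus LY-364747 and -0.14 to 0.18 for Ahrr in LY-364747 minus Carbidopa, which was -0.0058 without a filter. They were -0.0065 to 0.15 for Arnt, -0.15 to 1.92 for Cyp1a1 and -0.24 to 0.034 for Tiparp in CHIR-99021 minus Carbidopa. They were -0.36 to 0.42 for Cyp1a1 and -0.26 to 0.016 for Tiparp in CHIR-99021 minus LY-364747, and -0.23 to 1.84 for Cyp1a1, -0.090 to 0.13 for Tiparp and -0.19 to 0.055 for Nqo1 in LY-364747 minus Carbidopa. The cause was not tested.

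Over the 3 comparisons with MEF, 7 values of members passed the test, and without 1 library 6 to 14 did. Likewise, members differing numbered 2 to 4 with Carbidopa, 2 to 5 with LY-364747 and 2 to 5 with CHIR-99021 against MEF. They numbered 1 to 2 for CHIR-99021 minus Carbidopa, 0 to 2 for CHIR-99021 minus LY-364747 and 0 to 1 for LY-364747 minus Carbidopa. The highest counts came without Carbidopa replicate 2 (or, for LY-364747 and CHIR-99021 against MEF, also without replicate 1), except CHIR-99021 minus LY-364747, without Carbidopa replicate 1. The members tested changed with the library left out. Cyp1a2, below the filter otherwise, was tested in 7 of these fits and counted where it passed. It was not tested without LY-364747 replicate 1, its highest library, so it entered only through a treated library. Genes differing numbered 3142 (without MEF replicate 2) to 7996 (without Carbidopa replicate 2), 2841 (without MEF replicate 2) to 6519 (without Carbidopa replicate 1) and 3433 (without CHIR-99021 replicate 1) to 7800 (without Carbidopa replicate 2) against MEF. They numbered 715 (without CHIR-99021 replicate 1) to 4632 (without Carbidopa replicate 2), 663 (without CHIR-99021 replicate 1) to 4228 (without Carbidopa replicate 1) and 2 to 3816 (without Carbidopa replicate 2) between treatments, in the order above. A lone library is assumed to vary like other groups. With only the 2 groups compared, 4 members differed with LY-364747 (Ahr and Tiparp added) and 4 with CHIR-99021 (Ahr added, 0.49, adjusted p = 0.0354), and genes differing were 1027 for CHIR-99021 minus Carbidopa, 3673 for CHIR-99021 minus LY-364747 and 0 for LY-364747 minus Carbidopa. For the last, DESeq2 gave 16 and no filter 329, beside 2 as reported. A fit of Cyp1a1 could not be had with at least 10 counts in every library, in 4 fits of 2 groups or without MEF replicate 1. No pairing of samples by replicate number was seen, with correlations from -0.161 to 0.128. These cannot show whether libraries of the same number shared a culture or batch. A replicate block left 2, 2 and 3 members differing against MEF and changed no member's call. At these depths Cyp1a1, Cyp1a2 and Aldh3a1, with at most 13 reads per library, limit what can be said.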
